A study of Homo sapiens with 9 samples.

Results

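The EGFR family genes examined here are 10 listed genes: the receptors EGFR, ERBB2 and ERBB3, the ligands AREG, EREG, HBEGF, TGFA, BTC and EPGN, and ERRFI1, an intracellular inhibitor of the receptors. They were chosen by name, and all 10 were found among the 57820 genes of the Kyse150 count table and the 60683 genes of the TE11 table. Both lines are human esophageal squamous cell carcinoma lines kept in medium with serum. The 9 libraries of polyadenylated RNA fall into 4 groups: 2 Kyse150 libraries with an shRNA against KDM2A and 2 with the control shRNA shNC, then 2 TE11 libraries labelled with the KDM2A shRNA and 3 TE11 libraries with shNC. KDM2A is a histone demethylase of lysine 36 of histone H3 whose CXXC zinc finger binds unmethylated CpG. Per the series' design text the shRNA was delivered by lentivirus, so every group carries a viral vector and an shRNA. The labels do not say whether cells were pooled or cloned, and name no further KDM2A shRNA. They speak of independent replicates without saying what was repeated, so the p-values here cover library-to-library spread, which may be technical.

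The ligands of this family are made as membrane-bound precursors, and metalloproteases of the ADAM group release them. They bind EGFR, and some also bind ERBB4, after which receptors pair, phosphorylate each other and signal through RAS and MAP kinases and through phosphoinositide 3-kinase. ERBB2 has no known ligand and acts as a partner, and ERBB3 has little kinase activity of its own and signals mainly by recruiting phosphoinositide 3-kinase. In squamous epithelium EGFR is active in the basal, dividing layer, and it is often abundant in squamous carcinomas.

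Each Kyse150 library held 6052883 to 7167055 gene counts and each TE11 library 8457767 to 12073098. KDM2A was read first, since it checks the labels. It averaged 106 ± 1.89 CPM (gene counts scaled for library size by TMM within the line) in the Kyse150 knockdowns and 173 ± 1.88 CPM in the Kyse150 controls (SD, n = 2 each), a log2 fold change of -0.71 (standard error 0.07, adjusted p = 3.87e-09 by edgeR). In TE11 it averaged 133 ± 9.44 CPM in the libraries labelled knockdown (SD, n = 2) and 119 ± 2.06 CPM in the controls (SD, n = 3), a log2 fold change of 0.16 (standard error 0.07, adjusted p = 0.0335 by edgeR), a call that 6 of 13 alternatives kept (adjusted p 0.0101 to 0.398). So the targeted gene showed no fall in TE11. Across 14932 genes those libraries correlated at 0.918 to 0.922 with the Kyse150 controls, at 0.878 to 0.885 with the Kyse150 knockdowns and at 0.806 to 0.807 with the TE11 controls (Pearson r over genes, which are no independent replicates). Every TE11 direction below is between libraries as labelled, and what sets these libraries apart cannot be told apart from the label. All 12 squamous markers were at 1 CPM or more in each group. Their summed level was 2670 to 2760 CPM in the Kyse150 knockdowns and 2850 to 2930 CPM in the Kyse150 controls, and 2770 to 2820 CPM in the libraries labelled TE11 knockdown against 5650 to 6100 CPM in the TE11 controls. Of other cell types' lists, the leukocyte list (8 markers) summed to 439 to 457 CPM in the libraries labelled TE11 knockdown and 32.1 to 37 CPM in the TE11 controls, with PTPRC at 0 in every group. The fibroblast list (8 markers) summed to 2.68 to 3.67 CPM and 27.4 to 29.7 CPM in those groups, the endothelial list (7 markers) to 12.7 to 12.8 CPM and 67.9 to 76.3 CPM, and the columnar list (10 markers) to 6150 to 6360 CPM and 3570 to 3960 CPM. In Kyse150 the endothelial sums were 39.9 to 40.3 CPM in the knockdowns and 16.1 to 20.8 CPM in the controls, with KDR and TEK at 0 in both groups. These sums cover 6 of the 7 endothelial markers, since the Kyse150 table lists only those. The fibroblast sums were 11 to 11.8 CPM in the knockdowns and 6.37 to 6.7 CPM in the controls, with COL1A2, DCN and FAP at 0 in both. The columnar sums were 7260 to 7830 CPM in the knockdowns and 6450 to 6540 CPM in the controls, and the leukocyte sums 337 to 340 CPM in the knockdowns and 324 to 337 CPM in the controls. Of the markers tested in Kyse150, 2 of 2 endothelial and 1 of 1 fibroblast markers were called higher. So were 3 of 4 columnar and 1 of 2 leukocyte markers, with 0 lower in these lists. Of the 12 squamous markers 5 were called higher and 3 lower. Among all tested Kyse150 genes 24.8% were called higher and 23.3% lower. In TE11 4 of 12 squamous markers were called higher and 8 lower, and 1 of 4 leukocyte markers higher and 1 lower. There 2 of 4 columnar markers were higher and 1 lower, and 4 of 4 endothelial and 4 of 4 fibroblast markers lower. Of all tested TE11 genes 35.9% were called higher and 42.2% lower. The part of these markers in the results was not tested.

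In Kyse150 EGFR, ERBB3 and HBEGF rose with the KDM2A shRNA and TGFA fell, while ERBB2, AREG and ERRFI1 did not pass the test. EGFR rose 1.43-fold, ERBB3 1.66-fold and HBEGF 1.78-fold, and TGFA fell to 0.773 of control. EREG, BTC and EPGN held 0 or 1 count per library and were not tested. Thus 3 of the 7 tested members were called higher and 1 lower at an adjusted p under 0.05 by the quasi-likelihood test of edgeR, with 2 libraries a group. Of all 14060 tested genes 48.2% were called, 24.8% as higher and 23.3% as lower. The median log2 fold change of the 7 was 0.39, and that of all tested genes 0.00 to 2 decimals. At this background rate the count is no sign that the family stands apart.

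In TE11 the libraries labelled knockdown had more EGFR, TGFA, AREG and HBEGF and less ERBB2, ERBB3, EREG, BTC and EPGN than the controls. EGFR was 3.24-fold, TGFA 4.26-fold and AREG 7.14-fold higher, and EREG stood at 0.0186 of control. ERRFI1 did not pass the test. So 4 of 10 members were called higher and 5 lower by the same test, with 2 libraries set against 3. Of all 16453 tested genes 78.1% were called, 35.9% as higher and 42.2% as lower, so the share of members is near the background. EREG, BTC and EPGN passed the filter on low counts through the controls, so a difference was to be found in them. The median log2 fold change was -0.36 over the 10 members and -0.09 over all tested genes.

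**Figure D1:**
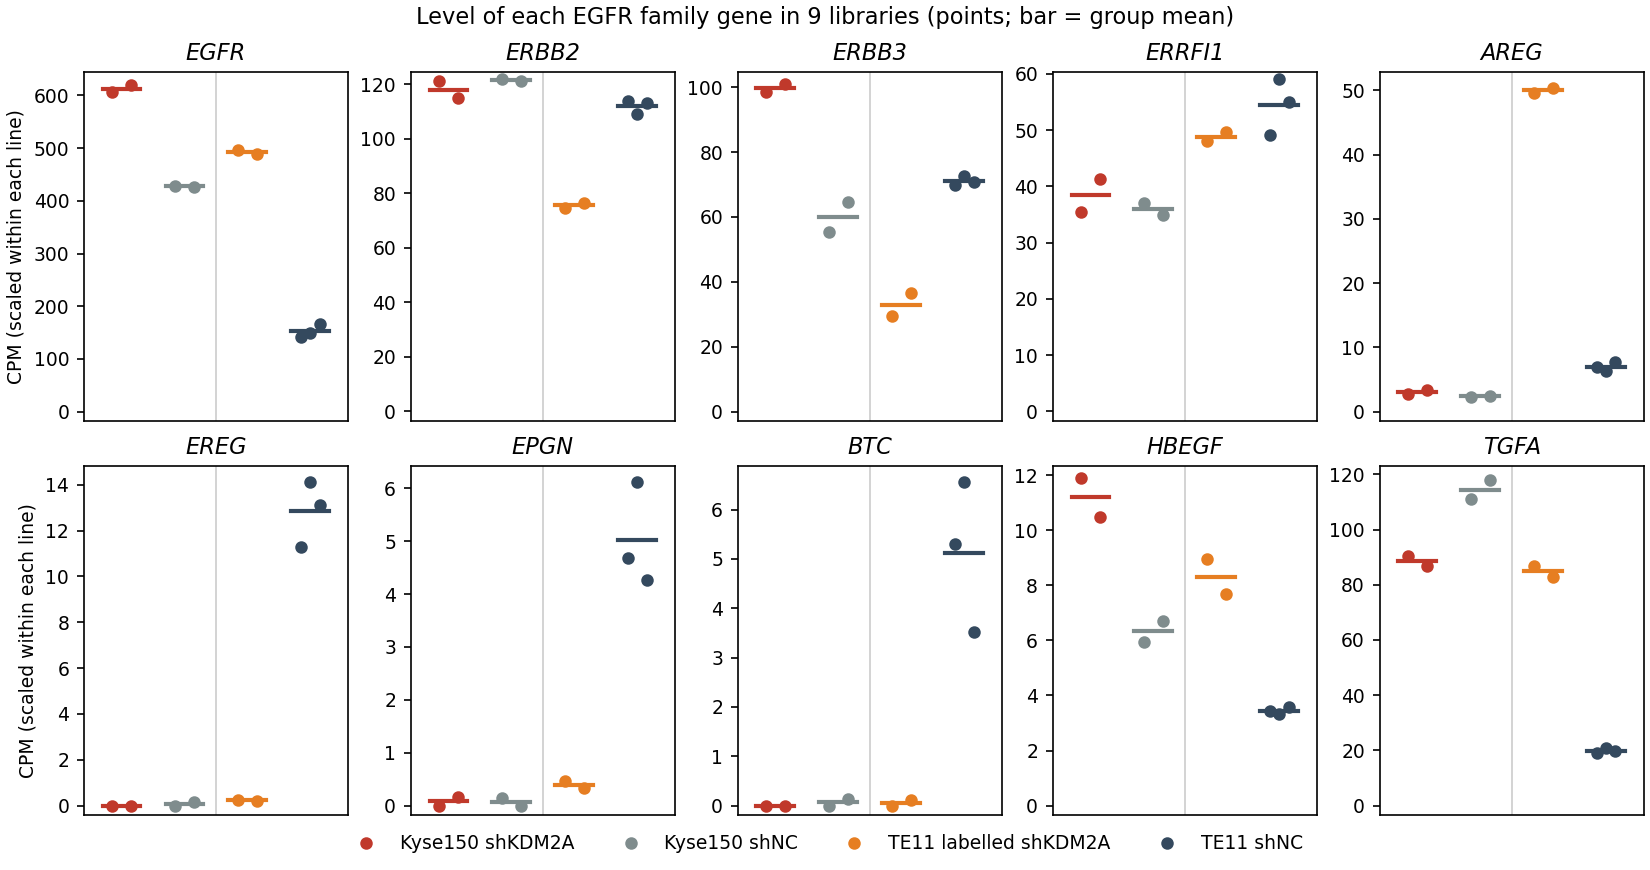
Level of each of the 10 genes in every library, in CPM scaled within each line on a linear axis, with a point per library and a bar at the group mean. The KDM2A shRNA libraries stand left of the shNC libraries of the same line, and EREG, EPGN and BTC reach above 3 CPM in the TE11 controls alone.

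EGFR (ENSG00000146648, chr7:55019021-55211628, forward strand of GRCh38 by GENCODE release 29) had 606 and 620 CPM in the Kyse150 knockdowns, against 429 and 427 CPM in the Kyse150 controls. The groups did not overlap, and the log2 fold change was 0.52 (standard error 0.05, adjusted p = 5.31e-09 by edgeR). In TE11 it had 497 and 489 CPM in the libraries labelled knockdown, against 141, 149 and 167 CPM in the controls. Both labelled libraries lay far above all controls, with a log2 fold change of 1.69 (standard error 0.06, adjusted p = 3.28e-27 by edgeR). An antisense gene, EGFR-AS1, lies within EGFR, and no source used here states the strand setting of the counts, so reads from the pair cannot be told apart.

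ERBB2 (ENSG00000141736, chr17:39687914-39730426) had 121 and 115 CPM in the Kyse150 knockdowns, against 122 and 121 CPM in the Kyse150 controls. These values lie close together, and the log2 fold change of -0.04 (standard error 0.07, adjusted p = 0.646 by edgeR) took a positive sign, 0.01, when scaled by library size alone. In TE11 ERBB2 had 74.7 and 76.4 CPM in the libraries labelled knockdown, against 114, 109 and 113 CPM in the controls. The log2 fold change there was -0.57 (standard error 0.07, adjusted p = 4.32e-09 by edgeR). The ends of ERBB2 overlap PGAP3 and MIEN1 on the opposite strand, and fragments shared by such genes may be left out or misassigned.

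ERBB3 (ENSG00000065361, chr12:56076799-56103505) differed in opposite directions in the lines. It had 98.5 and 101 CPM in the Kyse150 knockdowns, against 55.5 and 64.5 CPM in the Kyse150 controls, a log2 fold change of 0.73 (standard error 0.09, adjusted p = 1.45e-07 by edgeR). In TE11 it had 29.4 and 36.4 CPM in the libraries labelled knockdown, against 69.8, 72.7 and 70.7 CPM in the controls, a log2 fold change of -1.11 (standard error 0.09, adjusted p = 1.17e-14 by edgeR). Neither pair of groups overlapped.

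ERRFI1 (ENSG00000116285, chr1:8004404-8026308), known as MIG6, binds the kinase domain of the receptors and is induced by their signalling. It had 35.5 and 41.4 CPM in the Kyse150 knockdowns, against 37.1 and 35.0 CPM in the Kyse150 controls, and the groups overlapped (log2 fold change 0.09, standard error 0.12, adjusted p = 0.554 by edgeR). In TE11 it had 48.0 and 49.6 CPM in the libraries labelled knockdown, against 49.2, 59.1 and 55.0 CPM in the controls. Its log2 fold change there was -0.16 (standard error 0.09, adjusted p = 0.102 by edgeR), and it passed the test without control replicate 1 (-0.23, edgeR adjusted p = 0.00737) and with upper quartile scaling (-0.22, edgeR adjusted p = 0.0242; 0.00737 to 0.351 over its alternatives).

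TGFA and HBEGF are the ligands outside the chromosome 4 cluster. TGFA, which encodes transforming growth factor alpha (ENSG00000163235, chr2:70447280-70554193, reverse strand), fell to 90.6 and 86.7 CPM in the Kyse150 knockdowns, against 111 and 118 CPM in the Kyse150 controls. The groups did not overlap, and the log2 fold change was -0.37 (standard error 0.08, adjusted p = 0.000284 by edgeR). In TE11 the direction was the opposite: TGFA had 86.9 and 82.9 CPM in the libraries labelled knockdown, against 19.2, 20.7 and 19.9 CPM in the controls, a log2 fold change of 2.09 (standard error 0.09, adjusted p = 6.04e-25 by edgeR).

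HBEGF, a heparin-binding ligand of EGFR and ERBB4 (ENSG00000113070, chr5:140332843-140346631, reverse strand), had 11.9 and 10.5 CPM in the Kyse150 knockdowns, against 5.95 and 6.70 CPM in the Kyse150 controls. Its log2 fold change was 0.83 (standard error 0.22, adjusted p = 0.00306 by edgeR), and DESeq2 gave 0.82 with an adjusted p of 0.0595, which missed the threshold (0.00198 to 0.0595 over the alternatives). In TE11 it had 8.96 and 7.68 CPM in the libraries labelled knockdown, against 3.45, 3.32 and 3.59 CPM in the controls, a log2 fold change of 1.26 (standard error 0.22, adjusted p = 1.27e-06 by edgeR). HBEGF and EGFR were the members called higher in both lines.

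**Figure D2:**
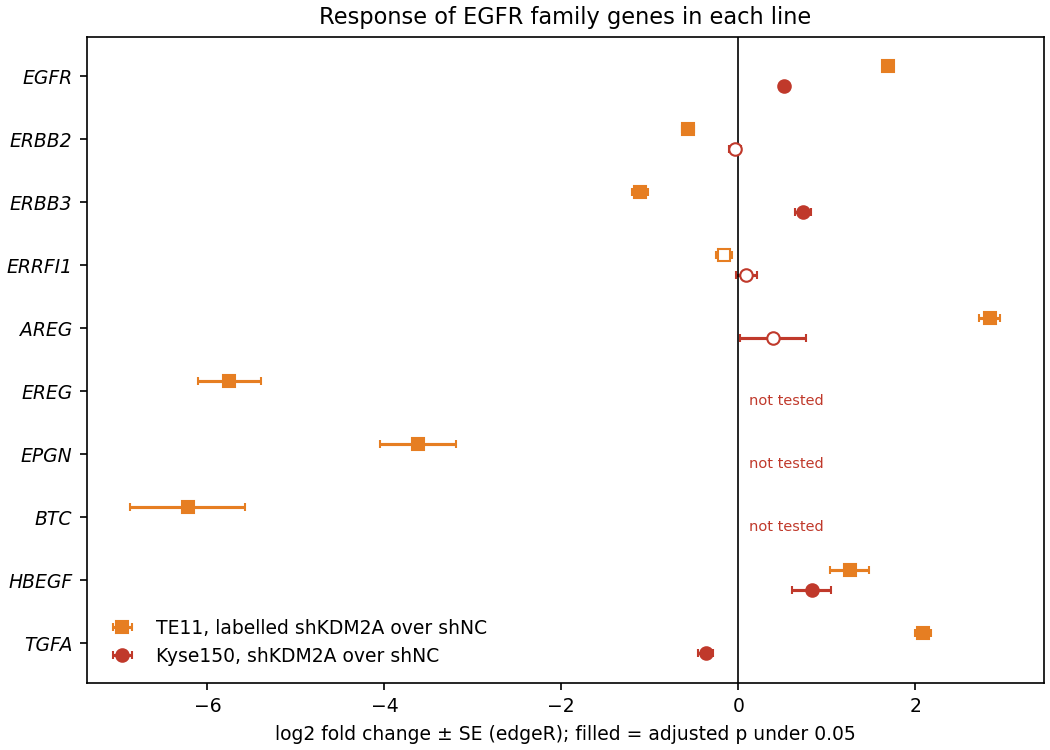
Log2 fold change of each gene, KDM2A shRNA over shNC, on the x axis, with bars of 1 SE from the edgeR fit; squares are TE11 and circles Kyse150, and filled symbols passed the adjusted threshold. ERBB3 and TGFA stand on opposite sides of 0 in the lines, at -1.11 and 2.09 in TE11 and at 0.73 and -0.37 in Kyse150.

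The remaining ligands, EPGN, EREG, AREG and BTC, lie together on chromosome 4 within 486 kb (chr4:74308473-74794686). They encode epigen, epiregulin, amphiregulin and betacellulin. The stretches of 250 bases upstream of the RefSeq starts of AREG, EREG and EPGN are shown because AREG and its neighbours differed in opposite directions in TE11, and that of EGFR because the receptor was higher in both lines. They were taken from RefSeq's GRCh38.p14 promoter windows, in which 9 of the 10 members had an entry, and lie at chr7:55018767-55019016, chr4:74444886-74445135, chr4:74364895-74365144 and chr4:74308220-74308469, all on the forward strand. Capitals mark matches on either strand to the TATA motif TATAAA, the GC box GGGCGG, the AP-1 motif TGANTCA, the cyclic AMP response element TGACGTCA and the E-box motif CACGTG.
EGFR: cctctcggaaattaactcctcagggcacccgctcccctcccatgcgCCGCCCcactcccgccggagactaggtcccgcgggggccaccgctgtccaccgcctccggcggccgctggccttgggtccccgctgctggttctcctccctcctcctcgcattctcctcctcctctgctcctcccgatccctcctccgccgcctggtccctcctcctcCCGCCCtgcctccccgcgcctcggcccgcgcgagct
AREG: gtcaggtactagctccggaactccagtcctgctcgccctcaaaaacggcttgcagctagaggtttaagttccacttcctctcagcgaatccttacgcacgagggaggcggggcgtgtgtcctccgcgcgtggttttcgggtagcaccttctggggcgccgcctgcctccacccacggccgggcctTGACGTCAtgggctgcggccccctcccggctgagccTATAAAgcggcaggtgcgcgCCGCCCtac
EREG: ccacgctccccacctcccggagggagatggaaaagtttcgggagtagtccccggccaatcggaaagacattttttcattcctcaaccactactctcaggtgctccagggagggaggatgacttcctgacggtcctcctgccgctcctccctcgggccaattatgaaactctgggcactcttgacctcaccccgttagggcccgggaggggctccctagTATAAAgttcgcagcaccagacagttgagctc
EPGN: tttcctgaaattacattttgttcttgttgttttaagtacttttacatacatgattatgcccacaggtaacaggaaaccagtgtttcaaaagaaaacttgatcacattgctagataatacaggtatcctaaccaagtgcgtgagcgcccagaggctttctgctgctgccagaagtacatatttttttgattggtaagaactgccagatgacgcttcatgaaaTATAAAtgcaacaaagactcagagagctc

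The EGFR stretch holds 25 CpG, 2 matches to the GC box and none to the TATA motif. RefSeq gives EGFR another start within the gene, and the window before it (chr7:55109589-55109838, not shown) holds 1 CpG, 2 matches to the TATA motif, 2 to the AP-1 motif and 0 to the GC box. The counts per gene do not separate these starts. That of AREG holds 23 CpG and 1 match each to the TATA motif, the GC box and the cyclic AMP response element. The EREG stretch holds 11 CpG and that of EPGN 3, each with 1 TATA motif and no other match. The window of BTC, which was also lower in TE11, is not shown and holds 8 CpG and no match to any of these motifs. Over the 35116 windows in the table the median was 11 CpG in 250 bases. The TATA motif was in 10.7% of them, the GC box in 42.6%, the AP-1 motif in 6.57%, the cyclic AMP response element in 1.65% and the E-box motif in 6.34%. A match is a description of these letters and not of a bound factor.

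AREG (ENSG00000109321, chr4:74445134-74455009) had 2.83 and 3.40 CPM in the Kyse150 knockdowns, against 2.27 and 2.48 CPM in the Kyse150 controls, on 40 and 33 counts in all. The log2 fold change was 0.39 (standard error 0.37, adjusted p = 0.409 by edgeR), an error too wide to tell a rise from none. In TE11 it had 49.6 and 50.4 CPM in the libraries labelled knockdown, against 6.91, 6.28 and 7.77 CPM in the controls, a log2 fold change of 2.84 (standard error 0.12, adjusted p = 1.15e-24 by edgeR). The level of AREG in Kyse150 is uncertain for a reason of counting. In GRCh37, a build that the submitters' processing notes name beside GRCh38, the gene is present as a near-identical pair, AREG and AREGB, and RefSeq's table for GRCh38.p14 gives AREGB as another name of AREG. Fragments aligned to more than 1 place were left out of gene counts and made up 6.58% to 6.78% of the Kyse150 columns and 2.94% to 4.07% of the TE11 columns. The Kyse150 table also lists an identifier that the TE11 table lacks, ENSG00000205595, with 1 count over all Kyse150 libraries. The reference tables used give it no symbol, so whether it is that copy was not settled. The part of multiply aligned fragments in the low AREG counts of Kyse150 was not tested, and AREG levels are not compared between the tables.

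EREG (ENSG00000124882, chr4:74365143-74388751) had 0.233 and 0.223 CPM in the libraries labelled TE11 knockdown, 2 counts each, against 11.3, 14.1 and 13.1 CPM in the TE11 controls. The log2 fold change was -5.75 (standard error 0.36, adjusted p = 7.7e-19 by edgeR). EPGN (ENSG00000182585, chr4:74308473-74315307) had 0.466 and 0.334 CPM in the libraries labelled knockdown, against 4.69, 6.11 and 4.26 CPM in the controls, a log2 fold change of -3.62 (standard error 0.43, adjusted p = 3.49e-10 by edgeR). BTC (ENSG00000174808, chr4:74744759-74794686, reverse strand) held 0 and 1 count in the libraries labelled knockdown, against 60, 75 and 42 counts in the controls. The ratio of scaled counts was 0.0112 (exact 95% interval 0.000281 to 0.063, counting error only). Without labelled replicate 2, which holds that count, BTC was at least 14.6-fold lower against a floor of 3 counts in the remaining library. All 3 genes were far lower in both labelled libraries than in any TE11 control.

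In Kyse150 the same 3 genes were at the limit of detection. EREG and BTC had 0 counts in the knockdowns and 1 count each in the controls, in replicate 2, and EPGN had 1 count in each group. A count of 0 allows up to 0.233 CPM over the Kyse150 knockdowns (3 counts over the group), so no fold change is given. In bulk RNA, fewer cells that make a transcript and less transcript per cell cannot be told apart.

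The coding genes next to the cluster were read as well, chosen by position. MTHFD2L, upstream of EPGN, averaged 7.38 CPM in the libraries labelled TE11 knockdown and 11.8 CPM in the controls (log2 fold change -0.67, standard error 0.17, adjusted p = 0.000553 by edgeR). CXCL2, a chemokine gene before MTHFD2L, averaged 0.561 CPM in the libraries labelled knockdown and 2.04 CPM in the TE11 controls (log2 fold change -1.83, standard error 0.54, adjusted p = 0.00242 by edgeR). PARM1, beyond BTC, was at 0 in both libraries labelled knockdown and at 1.92 to 2.09 CPM in the TE11 controls, and at 0 in all Kyse150 libraries. CXCL2 and PARM1 passed the filter on low counts in TE11 through the controls, so a lower level was to be found in them. RCHY1, the next coding gene, averaged 34.6 CPM in the libraries labelled knockdown and 18.6 CPM in the controls (log2 fold change 0.90, standard error 0.11, adjusted p = 2.01e-09 by edgeR). AREG was higher, as was RCHY1, and the genes read between and before them were lower. EPGN, EREG and BTC also passed that filter through the controls, so their lower level was to be found as well. For this reason no pattern by position is read from these directions.

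**Figure D3:**
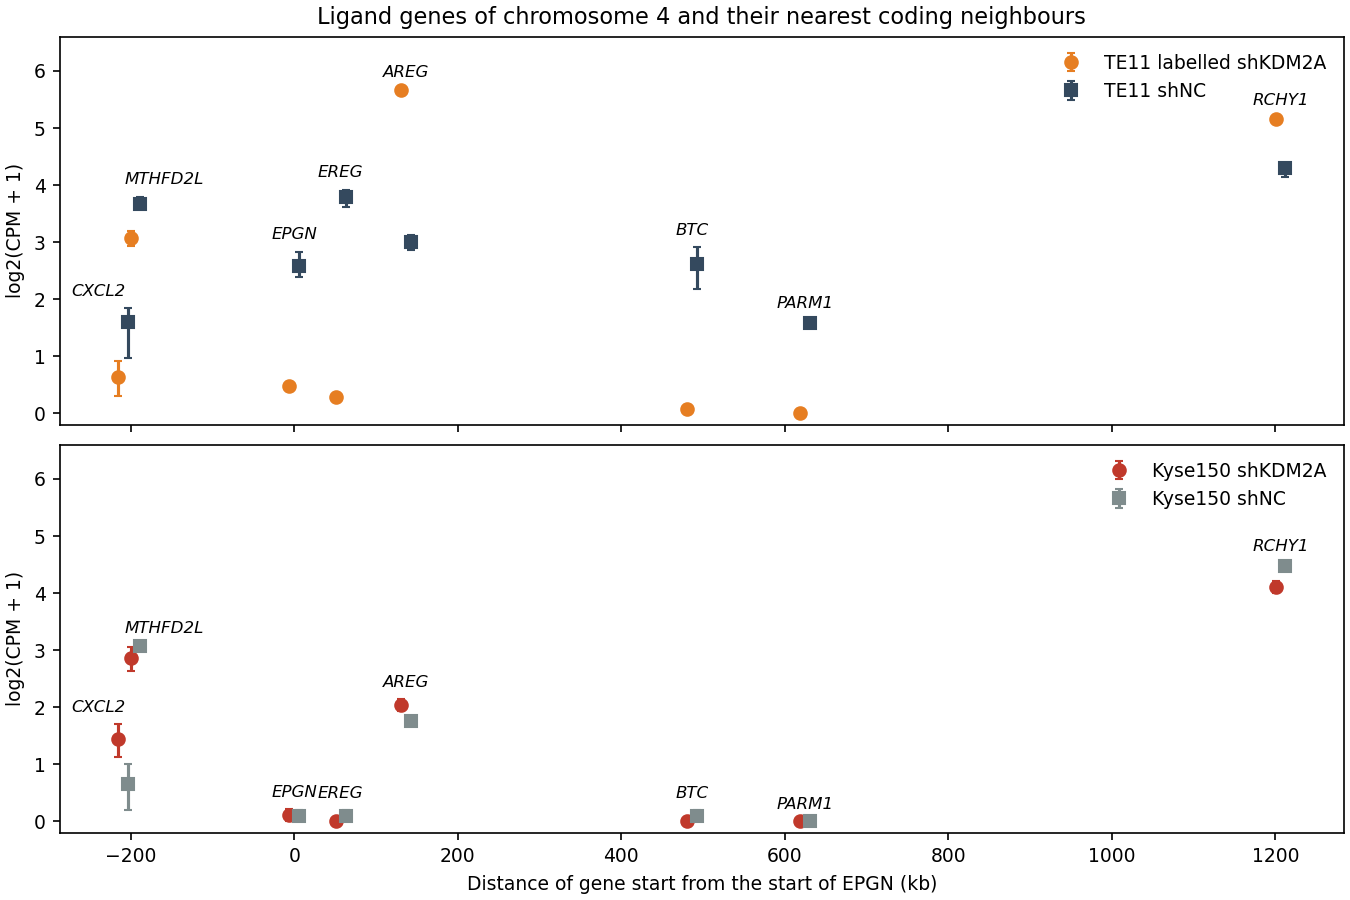
Mean log2(CPM + 1) of the 4 ligand genes of chromosome 4 and the coding genes on either side, placed by the distance of their start from that of EPGN in kb, with bars over the range of the libraries; TE11 above and Kyse150 below. In TE11 AREG is the ligand gene of the cluster that is higher in the libraries labelled knockdown, at 49.6 and 50.4 CPM against 6.28 to 7.77 CPM in the controls.

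To compare levels between genes, counts were put on 1 scale over all 9 libraries and divided by exon length from GENCODE release 29 (CPM per kilobase, a level). That length merges the exons of every annotated transcript of a gene, expressed or not. The tables use different annotations, so values set across lines are a description. EGFR was the highest of the 3 receptors in each group: 47.8 ± 0.765 in the Kyse150 knockdowns and 33.6 ± 0.13 in the Kyse150 controls, and 41.3 ± 0.59 in the libraries labelled TE11 knockdown against 12.6 ± 1.09 in the TE11 controls (SD, n = 2, 2, 2 and 3). On this scale ERBB2 had 11.1 in the Kyse150 knockdowns and 11.5 in the Kyse150 controls, and 7.67 in the libraries labelled TE11 knockdown against 11.2 in the TE11 controls. Its Kyse150 knockdown and TE11 control libraries overlapped. In EGFR, ERBB3 and HBEGF no neighbours in the order of the 4 groups overlapped. From high to low that order was Kyse150 knockdown, labelled TE11 knockdown, Kyse150 control and TE11 control for EGFR and HBEGF. For ERBB3 it was Kyse150 knockdown, TE11 control, Kyse150 control and labelled TE11 knockdown. AREG was left out, since its levels are not compared between the tables. The share of all genes whose groups separate in this way was not counted. Whether the separation is particular to these members therefore cannot be told, and it is not read as a trait of them. TGFA was highest in the Kyse150 controls at 22.7 ± 0.923 (SD, n = 2) and lowest in the TE11 controls at 4.16 ± 0.158 (SD, n = 3). Between them its labelled TE11 knockdown and Kyse150 knockdown values overlapped, at 17.9 and 17.4. EREG, BTC and EPGN were highest in the TE11 controls, at 2.33, 1.89 and 2.87. ERRFI1 was higher in the TE11 groups, at 12.2 in the libraries labelled knockdown and 13.5 in the controls, than in the Kyse150 knockdowns at 8.96 and controls at 8.45, and the groups of each line overlapped.

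The make-up of the ligands per kilobase differed between the TE11 groups. The 6 ligand genes summed to 53.4 and 52.4 CPM per kilobase in the libraries labelled knockdown, against 16.2, 17.9 and 16.3 in the TE11 controls. AREG made up 59.1% to 61.1% and TGFA 33.3% to 34.4% of that sum in the libraries labelled knockdown. This order depends on the division by merged exon length, 1.65 kb for AREG and 4.96 kb for TGFA. In CPM scaled within the line, TGFA averaged 84.9 and AREG 50 in the same libraries. In the controls AREG made up 22.1% to 29.8%, TGFA 24.2% to 25.4%, EPGN 14.9% to 19.5%, EREG 12.7% to 14.5%, BTC 7.89% to 13.5% and HBEGF 6.37% to 7.53%. In Kyse150 the sum was 23.4 and 22.6 in the knockdowns and 25.4 and 27.1 in the controls. TGFA made up 75.6% to 76.3% of it in the knockdowns and 86.2% to 86.8% in the controls, and HBEGF 15.1% to 16.5% and 7.62% to 8.05% in those groups. These shares take the AREG counts of Kyse150 as they stand.

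**Figure D4:**
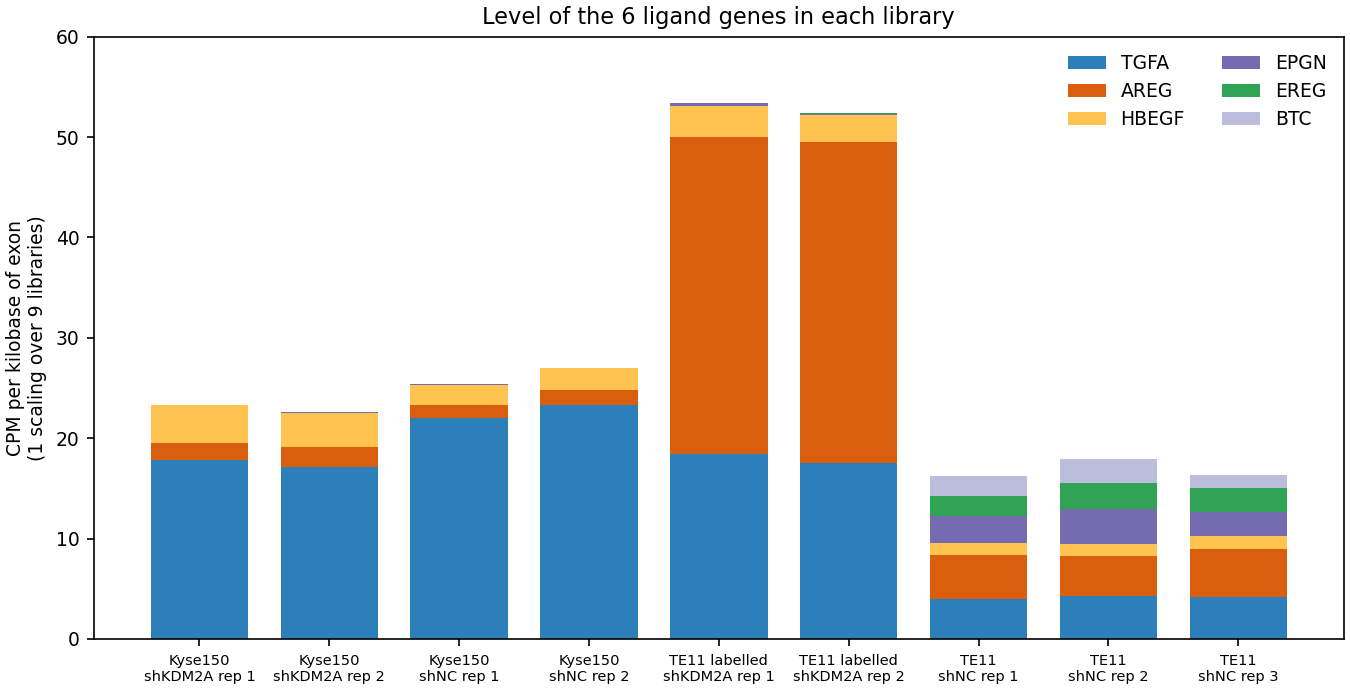
Level of the 6 ligand genes in each library, stacked, in CPM per kilobase of exon on a linear axis that starts at 0. AREG and TGFA fill most of the bars of the libraries labelled TE11 knockdown, which reach 53.4 and 52.4, and the TE11 controls hold all 6 ligands in bars of 16.2 to 17.9.

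The responses of the lines were compared in a fit of all 9 libraries. Of the 10 members 3 had a higher response in TE11 than in Kyse150 and 2 a lower one. Of all 15895 tested genes 66.9% differed, 33.8% with a higher and 33.1% with a lower response in TE11. The difference of log2 fold changes, TE11 minus Kyse150, was 1.20 (SE 0.09) for EGFR, 2.48 (SE 0.12) for TGFA, 2.47 (SE 0.39) for AREG, -0.50 (SE 0.11) for ERBB2 and -1.82 (SE 0.13) for ERBB3, with edgeR adjusted p from 1.17e-26 for TGFA to 4.12e-05 for ERBB2. For HBEGF the difference was 0.46 (standard error 0.31, adjusted p = 0.198 by edgeR) and for ERRFI1 -0.22 (standard error 0.15, adjusted p = 0.183 by edgeR). Those errors leave room for a difference in either gene. EREG, BTC and EPGN hold too few Kyse150 counts for a response there, so their difference could not be estimated. The difference for AREG takes its low Kyse150 counts as they stand, and these are uncertain for the reason of counting given above.

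Other genes of the pathway were read from 4 lists that share no gene with the members. Of 11 genes of ligand shedding, 6 of 9 tested were called higher and 0 lower in the Kyse150 knockdowns, where 24.8% and 23.3% of all tested genes were. The median log2 fold change was 0.37 against 0.00 over all tested genes. ADAM19, a metalloprotease, averaged 11 ± 1.34 CPM in the knockdowns and 3.01 ± 0.142 CPM in the controls (SD, n = 2 each). The inactive rhomboids RHBDF1 and RHBDF2, which help ADAM17 to mature, rose 1.70-fold (log2 SE 0.11) and 1.33-fold (log2 SE 0.10). ADAM17, the main sheddase of several EGFR ligands, rose 1.29-fold and ADAM15, another metalloprotease, 1.23-fold. The sixth was TIMP3, an inhibitor of ADAM17, with 41 counts in the knockdowns and 10 in the controls. TIMP3 passed the filter on low counts through the knockdowns, so that call was to be found. ADAM17, ADAM15 and TIMP3 were named after their values were seen. In TE11 0 of 11 were higher and 9 lower, where 78.1% of all tested genes were called and 42.2% called lower. The median was -1.55 against -0.09. RHBDL2, an active rhomboid protease, was at 0 counts in the libraries labelled knockdown and 376 in the controls, at least 63.5-fold lower against a floor of 3 counts over the labelled group. It passed the filter on low counts through the controls. TIMP3 stood at 0.0461 of control (log2 SE 0.22) and ADAM12 at 0.137 (log2 SE 0.29). ADAM12 also passed the filter through the controls, so a lower level was to be found in it and in RHBDL2. ADAM17 stood at 0.595 of control in TE11 (adjusted p = 1.06e-12 by edgeR).

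Of 37 adaptors and effectors, 12 of 36 tested rose and 9 fell in the Kyse150 knockdowns (median log2 fold change 0.04, against 0.00 over all tested genes), where 48.2% of all tested genes were called. Of the same number tested 9 were higher and 19 lower in the libraries labelled TE11 knockdown (median -0.32, against -0.09), where 78.1% of all tested genes were called. The TE11 count is near that share. Without Kyse150 knockdown replicate 1 or control replicate 1, 5 of these genes fell in Kyse150. VAV3, a guanine nucleotide exchange factor, averaged 22.6 ± 2.97 CPM in the Kyse150 knockdowns and 5.98 ± 1.44 CPM in the Kyse150 controls (SD, n = 2 each). In TE11 VAV3 averaged 2.84 ± 0.553 CPM in the libraries labelled knockdown (SD, n = 2) and 93.3 ± 7.87 CPM in the controls (SD, n = 3). GRB7, an adaptor encoded next to ERBB2, rose 3.71-fold (log2 SE 0.14) and GAB2, a docking protein, 3.10-fold (log2 SE 0.12) in the Kyse150 knockdowns. In TE11 PIK3R3, a regulatory subunit of phosphoinositide 3-kinase, stood at 0.126 of control (log2 SE 0.16), and YES1, a kinase of the SRC family, averaged 106 ± 4.67 CPM in the libraries labelled knockdown (SD, n = 2) and 687 ± 38.9 CPM in the controls (SD, n = 3).

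Of 30 genes of receptor turnover and inhibition, 10 of 29 tested rose and 6 fell in the Kyse150 knockdowns (median log2 fold change 0.06, against 0.00 over all tested genes), and 14 were higher and 11 lower of 30 in TE11 (median 0.04, against -0.09). These counts are near the shares of all tested genes that were called, 48.2% in Kyse150 and 78.1% in TE11. Without Kyse150 knockdown replicate 1, 3 fell in Kyse150. PTPRJ, a receptor-type tyrosine phosphatase, rose 1.92-fold (log2 SE 0.14), CBLB, a ubiquitin ligase, 1.83-fold (log2 SE 0.22) and EPN2, an endocytic adaptor, 1.63-fold (log2 SE 0.09) in the Kyse150 knockdowns. In TE11 CBL, the ubiquitin ligase that marks active EGFR for degradation, averaged 86.9 ± 0.195 CPM in the libraries labelled knockdown (SD, n = 2) and 22.4 ± 4.47 CPM in the controls (SD, n = 3). LRIG1, a membrane protein that lowers receptor levels, stood at 0.0548 of control (log2 SE 0.21) and LRIG3 at 0.198 (log2 SE 0.14).

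Of the 6 other receptors and ligands, ERBB4 held 0 counts in all Kyse150 libraries, and 4 counts in the libraries labelled TE11 knockdown against 10 in the TE11 controls, and NRG3 held 0 counts in both lines. NRG1, a neuregulin that binds ERBB3 and ERBB4, averaged 110 ± 4.54 CPM in the libraries labelled TE11 knockdown (SD, n = 2) and 40.7 ± 2.80 CPM in the controls (SD, n = 3), 2.70-fold higher in the labelled libraries (log2 SE 0.08). NRG4, a ligand of ERBB4, stood at 0.117 of control there (log2 SE 0.33). NRG4 passed the filter on low counts through the controls, so a lower level was to be found in it. EGF itself, the ligand for which EGFR is named, was also called lower in TE11, with 2 counts in the libraries labelled knockdown and 99 in the controls (named after its values were seen). It passed the filter on low counts through the controls, so that call was to be found, and it held 1 count in the Kyse150 knockdowns and 0 in the Kyse150 controls. In Kyse150 1 of 2 tested genes was called, NRG2, a neuregulin with 33 counts in the knockdowns and 4 in the controls (named after its values were seen). It passed the filter through the knockdowns, so that call too was to be found.

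The genes whose pattern over the 4 groups lay nearest to that of EGFR were LPP, a focal adhesion protein, TIMP1, a metalloprotease inhibitor, CCDC126 and PLAUR, the receptor of urokinase. The root mean square difference of their centred group means of log2(CPM + 1) from those of EGFR was 0.07 for LPP and 0.08 for the other three, the smallest among 11828 genes with a mean of 5 CPM or more, leaving out clone names. PLAUR, for instance, stood at 0.55 in the Kyse150 knockdowns and 0.14 in the Kyse150 controls, and at 0.44 in the libraries labelled TE11 knockdown and -1.14 in the TE11 controls, relative to its own mean over the groups.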

How the data were processed

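RNA of 9 libraries, selected with oligo(dT) beads, was sequenced as paired ends, per the labels' protocols. The authors deposited 1 table per line of whole-number gene counts (fragments per Ensembl gene), with no normalization. Named in the submitters' processing notes are HISAT2 2.1.0, HTSeq 0.9.1, bcl2fastq 2.19 and DESeq2, with GRCh37.p13 as well as GRCh38.p13 as builds, and no word on which build belongs to which table. Both tables hold 52165 identifiers in common. HTSeq's summary lines held 55.4% to 58.2% of a column and entered neither library sizes nor tests.

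Sample titles gave the groups. A table of gene names gave symbols to 89.9% of the Kyse150 identifiers and 99.5% of the TE11 identifiers. Each line was fitted alone with edgeR 4.0.16 in R 4.3.3: filterByExpr with a minimum count of 10 and a minimum total of 15, then TMM, then the robust quasi-likelihood test between groups. P-values were adjusted by Benjamini and Hochberg's method across every gene tested, at 0.05. The responses were compared by a contrast in 1 fit of 9 libraries over the shared genes. Floors of 3 counts and intervals cover counting error alone, because the sources record no molecular identifiers. As alternatives, DESeq2 1.42.0, further scalings and count filters were tried, and so were a block for the replicate number, 1 fit for both lines, and leaving out each library. The main fit of each line and the contrast of both lines were tried on simulated counts with the same spread for every gene. The alternatives were not tried on simulated counts. Replicates differed by more than counting noise (chi-square per degree of freedom 1.62 to 4.91).

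The members and lists were chosen with earlier results of these data known. By rule the text names all members, KDM2A, in each pathway list and line the 3 called genes with the largest change and a mean of 2 CPM or more, and the 4 genes nearest to EGFR.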

Additional observations from a re-analysis of the deposited data

Results flagged for a closer look

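The response to the KDM2A shRNA label differed between the lines in 5 members and in KDM2A, by the contrast of both responses in 1 fit (TE11 minus Kyse150, log2 scale, edgeR adjusted over all genes tested). The difference was 1.20 for EGFR, which was higher in both lines. It was 2.48 for TGFA, which was higher in TE11 and lower in Kyse150, and -1.82 for ERBB3, which was lower in TE11 and higher in Kyse150. For AREG it was 2.47 and for ERBB2 -0.50, both called in TE11 and not in Kyse150. The Kyse150 response of AREG rests on 40 counts in the knockdowns and 33 in the controls, and its counting there is uncertain. The difference for KDM2A itself was 0.90 (standard error 0.10, adjusted p = 1.06e-11 by edgeR), and since its level did not fall in TE11, the contrast does not compare like reductions of KDM2A.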

How the results depend on the processing

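Over the members and KDM2A, 362 values under an alternative kept direction and side of the threshold, 8 lost and 3 gained a call, and 2 changed sign without a call. These were ERBB2 in Kyse150, at 0.01 with library size only, and ERRFI1 in Kyse150, at -0.03 to 0.2 with a library left out (negative without knockdown replicate 2). The calls lost were HBEGF in Kyse150 with DESeq2 (0.82, adjusted p = 0.0595) and KDM2A in TE11 under 7 alternatives, and those gained were ERRFI1 in TE11 without control replicate 1 and with upper quartile scaling, and its difference between lines with that scaling (-0.34, edgeR adjusted p = 0.039). Upper quartile scaling moved the median difference between lines over all genes to -0.18, against -0.06. The causes were not tested. Over all alternatives 3 to 4 members were called in Kyse150, 9 to 10 in TE11 and 5 to 6 for the difference. Among pathway lists, the adaptors called lower in Kyse150 moved most, to 4 with DESeq2 and 5 with library size only or without knockdown replicate 1 or control replicate 1, against 9. Receptor turnover genes called lower there came to 3 without knockdown replicate 1, against 6, and shedding genes called lower to 1 under 6 alternatives, against 0. Other receptors and ligands called higher in TE11 came to 2, against 1, under 3 alternatives. DESeq2 called 2156 genes higher and 2181 lower in Kyse150, against 3490 and 3281 with edgeR. With the replicate number as a block, 4 members were called in Kyse150, 9 in TE11 and 5 for the difference, as without it. Same-numbered libraries did not deviate together (r = -0.13 in Kyse150, 0.00 and -0.02 in TE11), and the crossed block, chosen after seeing the data, called 4 members in Kyse150. Depth limits EREG, BTC and EPGN in Kyse150, at 0 or 1 count per library.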
